A study of Homo sapiens with 24 samples.

Results

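MAT2A, the gene of the S-adenosylmethionine synthetase of most tissues, and 9 genes that write, read or erase N6-methyladenosine (m6A) were examined for splicing in HCT116 cells. The other 9 genes were METTL16, METTL3, METTL14, WTAP, VIRMA, ZC3H13, RBM15, YTHDC1 and ALKBH5. The genes were chosen by their GENCODE symbols, and a splice-site row belonged to a gene when it lay on the strand and within the GRCh37 span of that gene. The 10 genes held 1500 of the 1823643 rows.

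HCT116 (HCT-116 in the labels) is an established line from a human colorectal carcinoma. PHF5A is a subunit of the SF3b complex, the part of the U2 snRNP that holds the branch point adenosine, and E7107 is a pladienolide derivative that binds this complex. All cells carried a lentiviral PHF5A cDNA, either wild type (WT) or with the Y36C substitution (Y36C), as selected pools of infected parental cells, and no removal of their own PHF5A gene is described. Each line was treated with DMSO or E7107 for 6 h, which gave 4 groups of 6 samples, named by genotype and treatment (WT DMSO and WT E7107, Y36C DMSO and Y36C E7107). Values for all 4 groups are given in that order below where no group is named. The labels give no dose of E7107. The methods name 100 nM and 10 μM, RNA-seq is described at 100 nM, and the dose of each sample is not otherwise given. The methods describe treatment in hexaplicate, followed by lysis. Neither they nor the labels say whether the replicates were independent cultures. The p-values thus measure the spread between these samples, which may be technical. RNA was poly(A) selected.

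The measured quantity was the percent spliced in (PSI), the share of the junction reads at a splice site that belongs to a given junction. Reads that run unspliced across an exon–intron boundary count as a junction of their own, and their PSI is called retention here. Read totals per sample were not at hand. The count of splice sites with at least 1 read stands in for depth, and its median per group ran from 282785.5 for WT under E7107 to 337968.5 for WT under DMSO, with 330507 for Y36C under E7107. The WT E7107 samples thus had the fewest sites with reads, and what this adds to the results was not tested. Of the epithelial genes looked at, EPCAM, CDH1, KRT8, KRT18 and KRT19 had reads at every site of their reference transcripts in every sample, CDX2 at 2 to 4 of 4 sites and KRT20 at 4 to 11 of 14, and VIL1 and CDX1 had no site listed. Among blood genes, PTPRC and CD3E had no site listed and CD14 had reads at up to 2 of 2. Of the fibroblast genes, COL1A2, DCN and LUM had no site listed, but COL1A1 had reads at 85 to 90 of 100 sites in every sample. The part of this in the results was not tested.

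m6A is written on nascent RNA by the METTL3–METTL14 heterodimer, which sits in a large complex with WTAP, VIRMA, ZC3H13 and RBM15, and on a few other RNAs by METTL16. The methyl group comes from S-adenosylmethionine, which MAT2A makes from methionine and ATP. YTHDC1 binds m6A in the nucleus and ALKBH5 removes it. MAT2A itself is a known target of this chemistry, because METTL16 binds hairpins in its 3' untranslated region, and the last intron of MAT2A is known to be detained in the nucleus in a proportion of transcripts.

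The 10 genes have 106 introns in their reference transcripts, of which 105 start with GT and end with AG, and these have 212 boundaries. Averaged over the boundaries of a gene with reads in all 24 samples, retention in WT cells was higher in E7107 than in DMSO by 72.7 percentage points in MAT2A, 61.0 in YTHDC1, 45.4 in METTL14, 33.4 in WTAP, 29.9 in ALKBH5, 26.3 in VIRMA, 23.5 in METTL16 and 17.5 in ZC3H13. METTL3 was at −2.36 percentage points, and this sign turned with the median over its boundaries, which was 3.87 percentage points higher in E7107. In Y36C cells the same averages differed by 11.02 percentage points in METTL3, 2.28 in MAT2A and 1.98 in YTHDC1, and by −0.564 to 0.694 in the other 6 genes. These averages are descriptions, with no test. RBM15 has no average, because none of its 4 splice sites had reads in any WT E7107 sample.

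**Figure D1:**
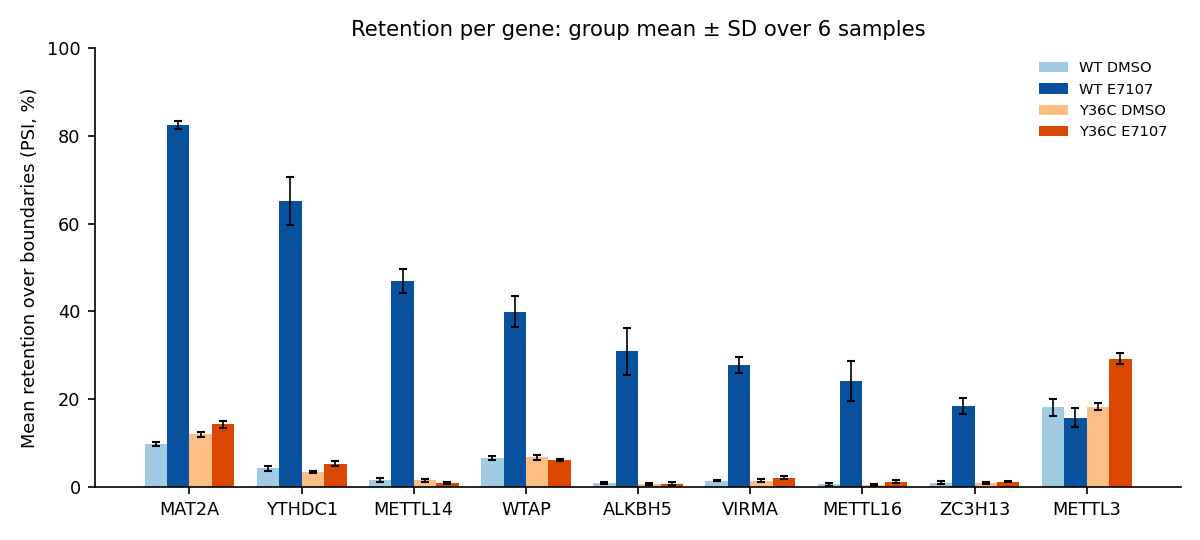
Mean retention per gene (PSI, %) in the 4 groups. Bars are means of 6 samples over the boundaries of the gene, and error bars are SD. The WT E7107 bar is the highest in 8 genes, from 18.4% in ZC3H13 to 82.5% in MAT2A, and in METTL3 the Y36C E7107 bar is the highest, at 29.2%.

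Row by row, WT E7107 was compared with WT DMSO at 170 of the 212 boundaries by limma, with an adjusted p of 0.05 or less as the threshold. The other 42 did not pass the filter on low values. Retention was higher at 155 boundaries and lower at 4, and 11 did not pass the test. Over all genes, 73.7% of tested boundaries were called higher and 5.65% lower, so most tested boundaries of the genome were called higher too. Of the 170, 107 passed the filter only through the E7107 group, where they had to differ, and nothing is drawn from their count. Of the 62 boundaries with retention above 0 in every sample of both groups, 48 were called higher and 4 lower, and over all genes 70.4% and 4.51% of such boundaries were. These 62 were 20 of METTL3, 16 of MAT2A, 13 of YTHDC1, 7 of WTAP, 5 of VIRMA and 1 of ALKBH5, with none of METTL16, METTL14 or ZC3H13. Apart from METTL3, where 6 were called higher and 4 lower, each of them was called higher.

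Y36C E7107 was compared with Y36C DMSO at 83 boundaries, of which 33 were called higher and 1 lower, and 49 did not pass the test. The background over all genes was 30.4% higher and 1.17% lower. Of the 55 boundaries above 0 in every Y36C sample, 28 were higher and 0 lower, against 32.9% and 1.13% over all genes. Of the 33, 11 were in METTL3, 9 in MAT2A, 7 in YTHDC1, 2 each in METTL16 and RBM15, and 1 each in VIRMA and ZC3H13. Of the 83, 17 passed the filter only through Y36C E7107. Among the 33 increases 5 came by this route, and nothing is drawn from them. The 28 were 11 of METTL3, 9 of MAT2A, 5 of YTHDC1, 2 of RBM15 and 1 of VIRMA, with none of METTL16 or ZC3H13. METTL14, WTAP and ALKBH5 had no called increase in Y36C cells among 2, 5 and 2 boundaries tested.

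Without drug the genotypes differed at 1 of 78 boundaries tested, against a background of 0.207% higher and 0.161% lower. Between the genotypes under E7107, 150 of 171 boundaries were lower in Y36C and 7 higher, with a background of 65.0% and 11.8%. Of these 171, 102 passed the filter only through WT E7107, and of the 67 above 0 in every sample of both groups 48 were lower and 7 higher (61.6% and 11.1% over all genes). The difference between the E7107 effects of the genotypes, tested itself as an interaction on all 24 samples, was negative (a smaller rise in Y36C) at 153 of 174 boundaries and positive at 6, with a background of 56.8% and 9.00%. Of the 174, 87 passed only through WT E7107, and of the 51 above 0 in all 24 samples 32 were negative and 6 positive (50.6% and 11.3% over all genes). All 6 positive boundaries were in METTL3.

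**Figure D2:**
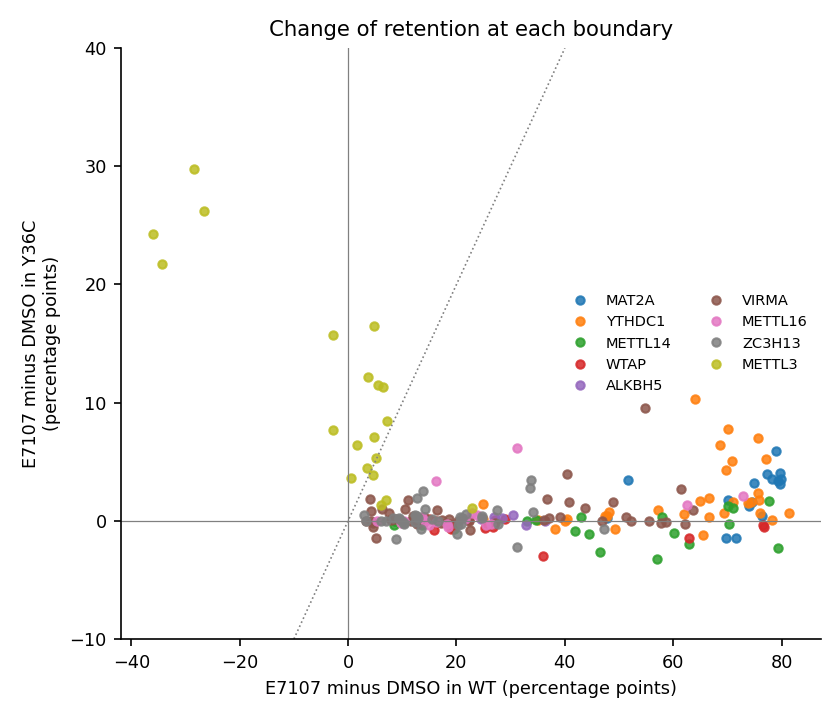
E7107 minus DMSO in WT (x axis) against the same difference in Y36C (y axis), in percentage points of retention, 1 point per boundary with reads in all samples. The dotted line marks equal changes. The 4 METTL3 boundaries of introns 8 and 9 lie at the upper left, where retention fell by 26.5 to 35.98 percentage points in WT and was 21.7 to 29.7 higher in Y36C, and most points of the other genes lie along the x axis.

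MAT2A, whose product supplies the methyl donor, was retained at every intron in WT cells under E7107, and the last intron was the only one with a high level before treatment. MAT2A lies at chr2:85766291-85772404 (GRCh37, plus strand) and its reference transcript has 8 introns. Intron 8, of 635 bases, precedes the last exon, which holds the end of the coding sequence and the 3' untranslated region. Because the results turn on it, its ends are shown here from the GRCh37 sequence, with exon bases in capitals, together with intron 4, of 83 bases, as an example of a short MAT2A intron that was spliced well before treatment. The 5' end lies at chr2:85770148-85770187, the 3' end at chr2:85770733-85770802 and the intron 4 stretch at chr2:85768859-85768961.
MAT2A intron 8, 5' end: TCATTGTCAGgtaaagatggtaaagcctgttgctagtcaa
MAT2A intron 8, 3' end: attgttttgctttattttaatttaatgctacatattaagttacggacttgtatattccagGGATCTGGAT
MAT2A intron 4: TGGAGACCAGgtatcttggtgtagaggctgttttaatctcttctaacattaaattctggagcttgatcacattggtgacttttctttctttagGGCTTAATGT

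At intron 8, retention as the mean of both boundaries was 32.7% at the lowest, 35.0% at the median and 40.5% at the highest of the 6 WT DMSO samples. In WT E7107 the lowest, median and highest were 82.6, 85.2 and 89.2%. The 2 groups do not overlap. Y36C DMSO ran from 34.7 to 39.9% with a median of 38.7%, and Y36C E7107 from 36.2 to 41.6% with a median of 40.8%, so these samples overlap each other and the WT DMSO samples. The means were 35.9% ± 2.68, 85.6% ± 2.47, 38.2% ± 1.83 and 40.04% ± 1.98 (SD, n = 6) in the order of the groups.

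E7107 raised intron 8 retention by 49.7 percentage points in WT cells (exact permutation test, two-sided, 924 splits, p = 0.00216, the smallest this design allows, adjusted p = 0.00433 over 4 comparisons). In Y36C cells the difference was 1.87 percentage points and did not pass the exact test (adjusted p = 0.130), but it passed with the replicate number as a block (exact permutation test, adjusted p = 0.0417), although the numbers did not pair the samples. The genotypes differed by 2.28 percentage points in DMSO (exact test, adjusted p = 0.130) and by −45.5 in E7107, Y36C minus WT (exact test, adjusted p = 0.00433). The interaction in limma was −2.22 on the natural-log odds scale at the 5' boundary (adjusted p = 1.50e-12) and −2.23 at the 3' boundary (adjusted p = 8.98e-12).

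The boundaries of intron 8 did not give the same answer in Y36C cells. At the 3' boundary alone, retention was 35.1% in Y36C DMSO and 38.6% in Y36C E7107, a difference of 3.48 percentage points that passed the exact permutation test (adjusted p = 0.0375), while limma across all rows did not call it (adjusted p = 0.123). At the 5' boundary the means were 41.2 and 41.5% (limma, adjusted p = 0.952). Exons of other MAT2A transcripts run across the 5' boundary, among them a protein-coding one (MAT2A-202), so reads there can belong to those exons. PSI is an average over all cells of a sample, and a full change in some of the cells cannot be told apart from a partial change in all of them.

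At introns 1 to 7 of MAT2A, mean retention lay between 2.38 and 10.6% in WT DMSO and between 72.4 and 87.1% in WT E7107, and all 14 boundaries were called higher. Intron 2 (94 bases) showed the largest change of the gene, at its 3' boundary, where WT DMSO samples had 1.99, 3.33 and 4.37% (lowest, median, highest) and WT E7107 samples 80.4, 82.3 and 87.0%. This rise was 4.73 ± 0.13 (SE) in log odds (adjusted p = 1.04e-10). The 5' boundary of intron 8 had the smallest change of the 16, from 38.3 to 86.0%, and the highest level in WT DMSO. Under E7107 all 8 introns of WT cells thus stood at like levels, with 82.1% ± 0.986 for the mean of introns 1 to 7 and 85.6% for intron 8.

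In Y36C cells several MAT2A introns other than intron 8 rose. The called increases were at the 5' boundary of intron 1 and at both boundaries of introns 2 to 5, 9 in all. The largest was at the 5' boundary of intron 5, where Y36C DMSO samples had 6.53, 8.11 and 9.69% and Y36C E7107 samples 12.3, 13.5 and 16.1% (0.57 ± 0.08 in log odds, adjusted p = 0.000523), with no overlap. Introns 6 and 7 were not called, and at intron 7 the means were 11.2% in DMSO and 9.75% in E7107 at the 5' boundary (adjusted p = 0.382).

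The 1 boundary that differed between the genotypes without drug was the 3' boundary of MAT2A intron 5, with 5.33% ± 0.840 in WT DMSO and 8.73% ± 1.08 in Y36C DMSO (SD, n = 6, adjusted p = 0.0494 by limma). This call was lost with an offset of 0.1 percentage points, without the filter on low values, and with the replicate number as a block. MAT2A also gained a junction that skips exons 2 and 3 in WT E7107, from 0 in all WT DMSO samples to 4.42% ± 1.67 of the reads at the 5' site of intron 1, and this junction was at 0 in all Y36C samples. It passed the filter only through WT E7107, so no p is given.

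**Figure D3:**
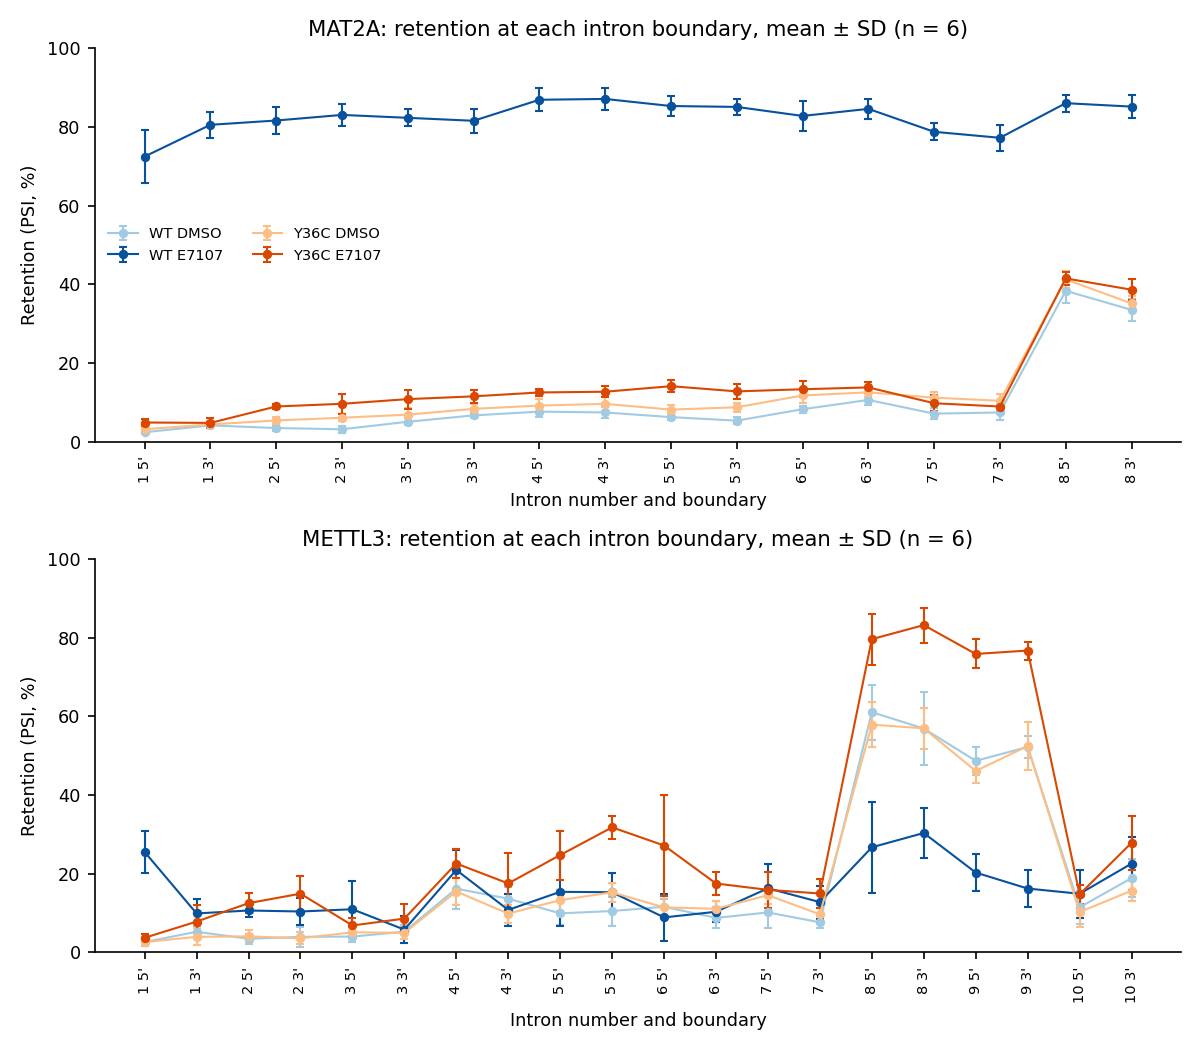
Retention (PSI, %) at each intron boundary of MAT2A (top) and METTL3 (bottom), in transcript order, as mean ± SD of 6 samples for the 4 groups. In MAT2A the WT E7107 line runs between 72.4 and 87.1% along the whole gene and the other 3 lines are highest at intron 8, and in METTL3 the treated groups lie on opposite sides of the DMSO groups at introns 8 and 9.

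The last exon of MAT2A holds the METTL16 motif 6 times, TACAGAGAA at 5 sites and TACAGAAAA at 1, counted on the transcribed strand only. The sites begin 43, 830, 1015, 1130, 1245 and 1353 bases after the end of the coding sequence. They are shown because they are the known contact of METTL16 on this transcript, with 10 bases on each side from GRCh37 and the motif in capitals, at chr2:85770925-85770953, chr2:85771712-85771740, chr2:85771897-85771925, chr2:85772012-85772040, chr2:85772127-85772155 and chr2:85772235-85772263.
Site 1: tggcgtaggcTACAGAGAAgccttcaagc
Site 2: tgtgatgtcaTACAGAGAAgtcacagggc
Site 3: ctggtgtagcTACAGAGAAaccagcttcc
Site 4: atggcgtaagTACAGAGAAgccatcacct
Site 5: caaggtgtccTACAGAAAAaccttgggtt
Site 6: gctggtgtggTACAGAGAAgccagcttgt

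Windows of 1612 bases, the length searched in MAT2A, were taken at the ends of 20163 reference transcripts for comparison. They are unbroken genomic sequence and can include introns, whereas the MAT2A stretch is exon only. TACAGAGAA stood in 1.33% of them, TACAGAAAA in 2.22% and either in 3.52%. The window of MAT2A was the only 1 with 6 or more of these sites, but the cut of 6 was taken from MAT2A itself, so this is no test. A match is a description of the letters, and binding was not measured here.

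METTL16, which methylates MAT2A and the U6 snRNA, was spliced almost completely at all introns in DMSO and lost this in WT cells under E7107. METTL16 is at chr17:2308856-2415185 (minus strand) and has 9 introns. Its mean retention over 18 boundaries went from 0.559 to 24.1% ± 4.60 under E7107 in WT and from 0.448 to 1.14% ± 0.309 in Y36C. The 10 boundaries tested in WT cells all passed the filter only through WT E7107, so their calls are not counted here. The last intron, intron 9, of 134 bases, changed most.

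At the 3' boundary of METTL16 intron 9, retention in WT DMSO was 0% at the lowest and at the median and 3.30% at the highest, and 60.0, 73.8 and 83.7% (lowest, median, highest) in WT E7107. That rise was 5.27 ± 0.29 in log odds, and no p is given because the boundary passed the filter only through WT E7107. It was 0% in all Y36C DMSO samples and at most 3.70% in Y36C E7107. The smallest tested change, at the 3' boundary of intron 5, still went from 0% in all WT DMSO samples to 9.67% ± 2.59.

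METTL16 also lost exons in WT E7107. The junction that joins exon 1 to exon 3 took 56.6% ± 6.91 of the reads at the 3' site of intron 2 in WT E7107. In WT DMSO it took 4.09% ± 3.06 (SD, n = 6), and the rise was 3.43 ± 0.35 in log odds. At the other end of this junction, the 5' site of intron 1, the share went from 3.68 to 46.1% in WT and from 5.56 to 11.6% in Y36C. The Y36C rise was called there (0.78 ± 0.21, adjusted p = 0.0178) and was smaller than that in WT (interaction −2.29). Of the 8 spliced rows of METTL16 outside the reference junctions tested in WT, 6 passed the filter only through WT E7107. No p is therefore given for the WT rise or the interaction of this junction. Junctions that skip exons 4 and 5, and exons 7 and 8, reached 36.9% ± 12.2 and 40.7% ± 12.9 in WT E7107, from 0.970 and 0.260% in WT DMSO, and were near their DMSO level in Y36C E7107, at 2.53 and 0.596%. These 2 junctions were chosen after their values were seen. In Y36C the means at intron 3 went from 0.630 to 4.02% at the 5' boundary and from 1.82 to 8.002% at the 3' boundary. Both boundaries passed the filter only through Y36C E7107, so no p is given.

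METTL3, the catalytic subunit of the main m6A writer, was the only gene of the 10 with called decreases of retention in WT cells, 4 in number. In DMSO the retention of its introns 8 and 9 lay between 46.1 and 61.1%. In WT cells E7107 lowered the retention of both introns, and in Y36C cells it raised it. METTL3 is at chr14:21966277-21979484 (minus strand) with 10 introns. Introns 8 and 9, of 120 and 168 bases, lie on either side of exon 9, of 66 bases, and the results turn on these 3 elements. They are shown from GRCh37, introns with flanking exon bases in capitals at chr14:21967506-21967645 and chr14:21967272-21967459, and the exon whole at chr14:21967450-21967515.
METTL3 intron 8: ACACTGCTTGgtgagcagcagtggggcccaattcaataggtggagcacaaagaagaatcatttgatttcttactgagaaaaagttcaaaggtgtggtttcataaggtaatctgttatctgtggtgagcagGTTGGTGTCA
METTL3 exon 9: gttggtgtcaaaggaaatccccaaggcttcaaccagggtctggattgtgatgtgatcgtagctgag
METTL3 intron 9: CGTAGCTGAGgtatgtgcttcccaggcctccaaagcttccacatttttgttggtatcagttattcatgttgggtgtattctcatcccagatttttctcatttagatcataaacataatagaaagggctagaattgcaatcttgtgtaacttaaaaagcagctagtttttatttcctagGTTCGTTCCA

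At the 5' boundary of METTL3 intron 9, WT DMSO samples had 43.8, 49.0 and 52.7% retention (lowest, median, highest) and WT E7107 samples 14.3, 19.8 and 27.6%. Y36C DMSO samples had 41.7, 45.8 and 51.0%, and Y36C E7107 samples 70.8, 75.6 and 80.4%. The DMSO groups overlap, every WT E7107 sample lies below them and every Y36C E7107 sample above them. In log odds the change was −1.30 ± 0.13 in WT (adjusted p = 4.64e-06) and 1.28 ± 0.10 in Y36C (adjusted p = 6.43e-06), and the difference between them was 2.58 (adjusted p = 3.32e-11).

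The 3' boundary of intron 9 moved likewise, with means of 52.2% ± 2.71, 16.2% ± 4.74, 52.4% ± 6.00 and 76.7% ± 2.29 (SD, n = 6) in the order of the groups. This was the largest decrease of retention of METTL3 in WT, at −1.71 ± 0.15 in log odds (adjusted p = 1.05e-06). Exons of TOX4, on the opposite strand, run across this boundary, and whether the libraries marked strand is not given in the sources used here, whereas no exon of another gene lies across the 5' boundary of intron 9 or either boundary of intron 8.

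Intron 8 was described after its values were seen. Its 5' boundary had means of 61.1% ± 6.999, 26.7% ± 11.6, 57.9% ± 5.71 and 79.6% ± 6.47, and its 3' boundary 56.9% ± 9.19, 30.4% ± 6.24, 57.0% ± 5.22 and 83.2% ± 4.46, in the same order of groups. Both fell in WT (−1.50 ± 0.26, adjusted p = 0.000358, and −1.10 ± 0.19, adjusted p = 0.000312) and rose in Y36C (1.05 ± 0.18, adjusted p = 0.00164, and 1.30 ± 0.14, adjusted p = 7.70e-05). Other METTL3 transcripts in the annotation keep these introns, and their reads count as retention here.

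Boundaries of other genes with a like starting level give the background for these 4. Among all tested boundaries with a DMSO mean between 30 and 65%, 19.6% of 3541 were called lower and 32.3% higher in WT, and 27.9% of 5016 were called higher and 2.37% lower in Y36C. Both directions at the same boundary, lower in WT and higher in Y36C, were called at 1251 of 58797 boundaries tested in both genotypes (2.13%). This share covers all starting levels and is not matched to these 4. Of 82271 boundaries with a WT DMSO mean below 10%, 3.49% were called lower in WT. The 4 METTL3 boundaries are among the 1251.

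**Figure D4:**
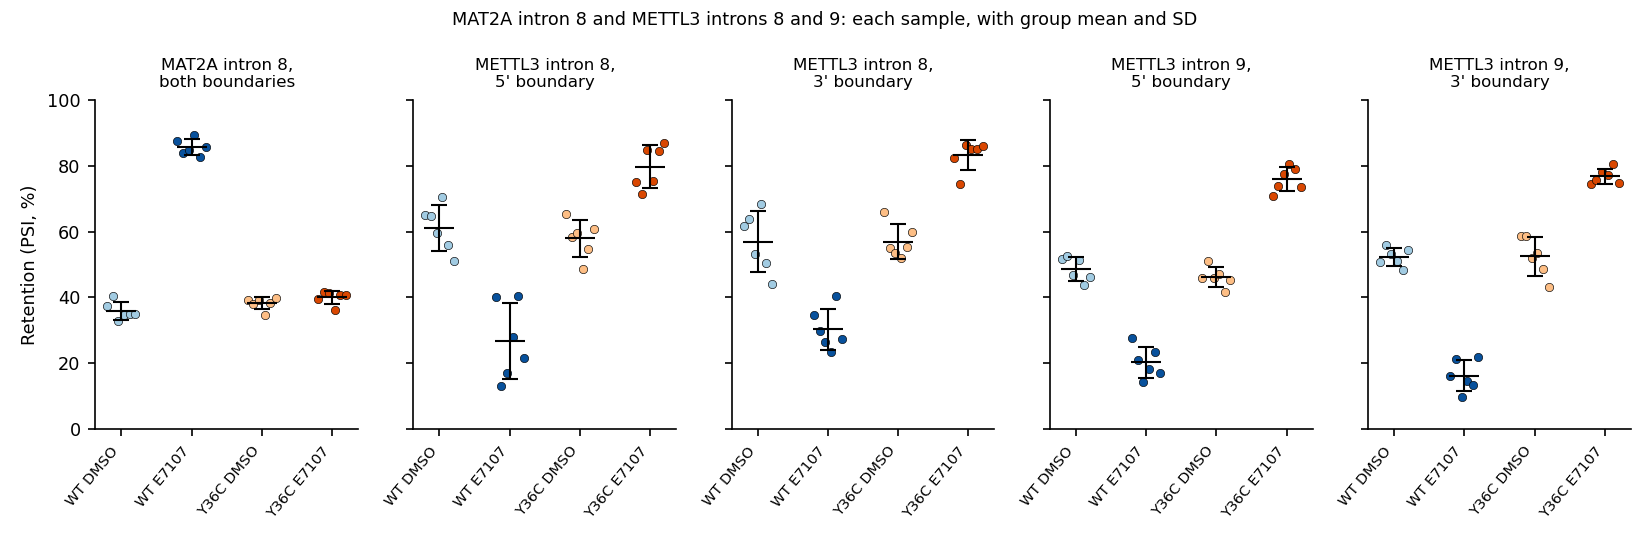
Retention (PSI, %) in each sample for intron 8 of MAT2A (mean of both boundaries) and each boundary of METTL3 introns 8 and 9, by group, with the group mean and SD. For MAT2A the WT E7107 samples lie between 82.6 and 89.2% and the other groups between 32.7 and 41.6%, and for METTL3 the WT E7107 samples lie lowest and the Y36C E7107 samples highest at each boundary.

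Spliced reads of METTL3 gave the same picture at exon 9 with 1 addition. Usage of the reference junction at the 5' site of intron 9 went from 51.3 to 79.7% in WT and from 53.9 to 24.0% in Y36C, but it shares its total with the retention values and is not separate evidence. A junction that skips exon 9 rose in both genotypes, from 0.305% ± 0.338 to 23.4% ± 8.39 at the 5' site of intron 8 in WT (3.18 ± 0.21 in log odds) and from 0.680% ± 0.460 to 4.83% ± 3.13 in Y36C (1.21 ± 0.24, adjusted p = 0.00437). The rise was smaller in Y36C (interaction −1.97). In WT this junction passed the filter only through WT E7107, so no p is given for the WT rise or the interaction. At the 5' site of intron 8 the reference junction had 38.6% in WT DMSO and 49.8% in WT E7107 and did not pass the test (adjusted p = 0.125).

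Upstream in METTL3 the genotypes again differed. The junction that skips exon 6 fell in WT from 4.85% ± 0.822 to 2.18% ± 2.25 at the 3' site of intron 6 (−0.86 ± 0.32) and rose in Y36C from 7.06% ± 1.44 to 20.2% ± 3.96 (1.12 ± 0.13, adjusted p = 0.000124). In WT this junction passed the filter only through WT DMSO, so no p is given for the fall. It had 14.9, 20.4 and 24.5% (lowest, median, highest) in Y36C E7107, above every sample of the other groups. A junction that skips exons 6 and 7 was at 0 in all Y36C DMSO samples and at 9.93% ± 3.94 in Y36C E7107 at the 5' site of intron 5, with 0.347% in WT E7107. In Y36C it passed the filter only through Y36C E7107, so no p is given. This second junction was chosen after its values were seen.

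METTL3 intron 1, the longest of the gene with 7241 bases, followed the common pattern at its 5' boundary. It went from 2.64% ± 1.09 to 25.5% ± 5.39 in WT (2.29 ± 0.19, adjusted p = 7.89e-07), while in Y36C the means were 2.63 and 3.73% (adjusted p = 0.124). It was the 1 METTL3 boundary of 20 with a negative interaction (−2.01, adjusted p = 1.79e-07). The smallest change in WT was at the 3' boundary of intron 3, with 5.27% in DMSO and 5.80% in E7107 (adjusted p = 1). In Y36C cells retention of introns 2 and 5 rose at both boundaries, for example from 15.3% ± 2.48 to 31.8% ± 2.89 at the 3' boundary of intron 5 (0.92 ± 0.09, adjusted p = 4.46e-05). These 2 introns were also named after their values were seen.

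METTL14, the RNA-binding partner of METTL3, was retained widely in WT E7107, and neither of the 2 boundaries tested in Y36C was called higher. Its mean over 20 boundaries went from 1.53% ± 0.466 to 47.0% ± 2.69 under E7107 in WT, and stood at 1.44% in DMSO and 0.931% in E7107 in Y36C. The 19 boundaries tested in WT passed the filter only through WT E7107, so no p is given for them. The largest change was at the 3' boundary of intron 7, from 0, 2.88 and 4.41% (lowest, median, highest) to 74.1, 80.5 and 94.6%, or 5.00 ± 0.36 in log odds. Of the tested boundaries the 5' boundary of intron 9 changed least (0.596 to 9.26%), and the same site had the largest gain of a skipping junction. That junction, which leaves out exon 10, went from 10.6% ± 3.06 to 56.4% ± 13.98 in WT, with 12.3% ± 5.48 and 10.4% ± 4.50 in Y36C without and with the drug (WT 2.36 ± 0.27, adjusted p = 1.11e-05). The 1 boundary of the 10 genes called lower in Y36C was the 5' boundary of METTL14 intron 3, with 2.65% ± 1.01 in DMSO and 0% in all 6 E7107 samples. It passed the filter only through Y36C DMSO, so no p is given and nothing is drawn from the call. Intron 3 is the only 1 of the 106 introns that starts with GC, and a link to these values was not tested.

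WTAP, which holds the METTL3–METTL14 pair in nuclear speckles, went from a retention of 6.50% to 39.9% ± 3.57 under E7107 in WT, and had 6.70% in DMSO and 6.13% in E7107 in Y36C. The 7 boundaries above 0 in every WT sample were called higher in WT, and none of 5 tested was called in Y36C. The last intron, intron 7, changed most, at its 5' boundary, where WT DMSO samples had 0, 2.29 and 5.26% and WT E7107 samples 68.2, 82.6 and 87.5% (4.81 ± 0.33). This boundary passed the filter only through WT E7107, so no p is given. The 5' boundary of intron 4 changed least (0.517 to 15.5%, adjusted p = 3.31e-08). Intron 6 had 62.1% at its 5' boundary in WT DMSO and 98.1% in WT E7107, and an exon of the short WTAP isoform (WTAP-201) runs across that boundary, so this value also counts the short isoform. At its 3' boundary the values were 15.1% ± 5.04 and 78.0% ± 12.9. Skipping of exon 2 rose in WT from 0.214 to 14.2% ± 1.43, and this junction too passed the filter only through WT E7107.

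VIRMA, the largest subunit and a scaffold of the complex, lies on chromosome 8 (minus strand) and has 23 introns. Under E7107 its mean went from 1.36 to 27.7% ± 1.83 in WT and from 1.42 to 2.06% in Y36C. The 5 boundaries above 0 in every WT sample were called higher in WT E7107. The largest change was at the 3' boundary of intron 9, from 0, 0.860 and 1.72% to 58.1, 64.9 and 69.8% (4.66 ± 0.20). This boundary passed the filter only through WT E7107, so no p is given. The 1 tested boundary that was not called was the 3' boundary of intron 15, at 2.01 and 5.32% (adjusted p = 0.585). Over all 104 introns with values, the same change had a Spearman correlation of −0.147 with intron length, −0.342 with GC content and −0.192 with the intron number. By gene the last of these ran from −0.771 in VIRMA to 0.541 in YTHDC1. These are descriptions over introns that share transcripts and samples.

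In Y36C cells VIRMA rose at the 5' boundary of intron 13, from 20.2% ± 6.43 to 29.7% ± 3.76 (0.53 ± 0.17, adjusted p = 0.0417), where an exon of another VIRMA transcript (VIRMA-202) runs across. In WT this boundary went from 15.7 to 70.4%. A junction that leaves out exons 9 to 12 was at 0 in WT DMSO and in both Y36C groups and at 13.2% ± 5.16 in WT E7107. It passed the filter only through WT E7107, so no p is given. Skipping of VIRMA exon 2 rose in Y36C, from 0.741% ± 0.588 to 3.78% ± 2.03 (1.03 ± 0.23), and had 1.27% in WT DMSO and 0.970% in WT E7107, where it was not tested. No tested non-reference junction of VIRMA was above 0 in every Y36C sample, so no p is given for this rise either.

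ZC3H13, which anchors the complex in the nucleus, had the smallest WT difference among the 8 genes other than METTL3 with an average. The mean went from 0.892 to 18.4% ± 1.85 under E7107 in WT and from 0.851 to 1.12% in Y36C. Its 18 boundaries tested in WT passed the filter only through WT E7107, so no p is given for them. Of these the 5' boundary of intron 1 changed most and was also the least even, with 0, 7.35 and 14.6% in WT DMSO and 28.6, 56.3 and 76.9% in WT E7107 (3.13 ± 0.59). The smallest change among the tested boundaries was at the 5' boundary of intron 4, from 0.979 to 11.4%. In Y36C the 1 called rise was at the 5' boundary of intron 3, from 1.02% ± 0.922 to 4.44% ± 1.08. It passed the filter only through Y36C E7107, so no p is given. No junction outside the reference transcript rose in ZC3H13 in either genotype. At the same 5' site as intron 1, an annotated junction to another exon went from 17.8% ± 3.46 to 1.52% ± 3.71 in WT (−2.72 ± 0.39), where it passed the filter only through WT DMSO. This junction was named after its values were seen.

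RBM15, an RNA-binding adaptor that brings the complex to its targets, could be compared only in part. Its reference transcript has 2 introns, of 3270 and 658 bases. No WT E7107 sample had reads at any of its 4 sites, so no comparison with that group could be made. Retention at the 5' boundary of intron 1 was 70.6, 80.2 and 83.8% in WT DMSO, 71.2, 77.8 and 83.3% in Y36C DMSO and 86.7, 89.4 and 94.4% in Y36C E7107 (Y36C change 0.91 ± 0.16, adjusted p = 0.00158). At the 5' boundary of intron 2 the means were 89.3, 91.2 and 96.8% (adjusted p = 0.00689). Coding exons of other RBM15 transcripts run across the 5' boundary of intron 1, so these values hold more than retention.

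YTHDC1, the nuclear m6A reader, was the second most retained gene in WT E7107. Averaged over its boundaries it went from 4.18% ± 0.571 to 65.1% ± 5.47 under E7107 in WT and from 3.32 to 5.29% in Y36C. The 13 boundaries above 0 in every WT sample were called higher in WT. The largest change was at the 3' boundary of intron 15, where WT DMSO samples had 0, 2.52 and 4.26% and WT E7107 samples 78.6, 84.1 and 87.9% (5.08 ± 0.26), the largest in percentage points of all 10 genes. This boundary passed the filter only through WT E7107, so no p is given. The 5' boundary of intron 1 changed least, from 0.358% ± 0.557 in WT DMSO to 25.3% in WT E7107. With WT DMSO this near 0, no p is given for it. In Y36C the 5' boundary of intron 11 changed most, from 11.5, 14.3 and 18.1% to 18.1, 23.8 and 37.1% (0.62 ± 0.16, adjusted p = 0.0159).

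Skipping of YTHDC1 exon 6 rose in WT from 4.63% ± 2.00 to 30.5% ± 5.68 (2.07 ± 0.19, adjusted p = 1.51e-06), while in Y36C the values were 2.80 and 4.94% (adjusted p = 0.155). At the 5' site of intron 13 an annotated junction to another acceptor went from 30.6% ± 4.14 to 6.59% ± 2.31 in WT and from 28.4% ± 3.04 to 19.5% ± 5.58 in Y36C. This junction fell in both genotypes (−1.75 ± 0.16, adjusted p = 1.19e-06, and −0.50 ± 0.15, adjusted p = 0.0346), and the fall was smaller in Y36C (interaction 1.25, adjusted p = 6.57e-05). It was named after its values were seen.

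ALKBH5, the nuclear m6A demethylase, has 3 introns, and the mean retention at their boundaries was at most 2.24% in all groups but WT E7107, where it lay between 25.0 and 36.8%. The largest change was at the 3' boundary of intron 2, from 0, 0.251 and 1.62% to 33.6, 35.2 and 45.7% (3.77 ± 0.18). The smallest was at the 5' boundary of intron 1 (0.361 to 25.0%). Both boundaries passed the filter only through WT E7107, so no p is given. In Y36C the 2 boundaries tested were not called, with 0.957 and 0.898% at the 3' boundary of intron 2 and 1.26 and 0.869% at that of intron 3. Skipping of exon 2 rose in both genotypes, from 1.45% ± 1.10 to 6.76% ± 1.67 in WT and from 0.998% ± 0.785 to 3.53% ± 1.15 in Y36C. The Y36C rise was called by limma (adjusted p = 0.00379). In WT this junction passed the filter only through WT E7107, so no p is given for the WT rise. The 2 rises did not differ by the interaction test (−0.41, adjusted p = 0.266).

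**Figure D5:**
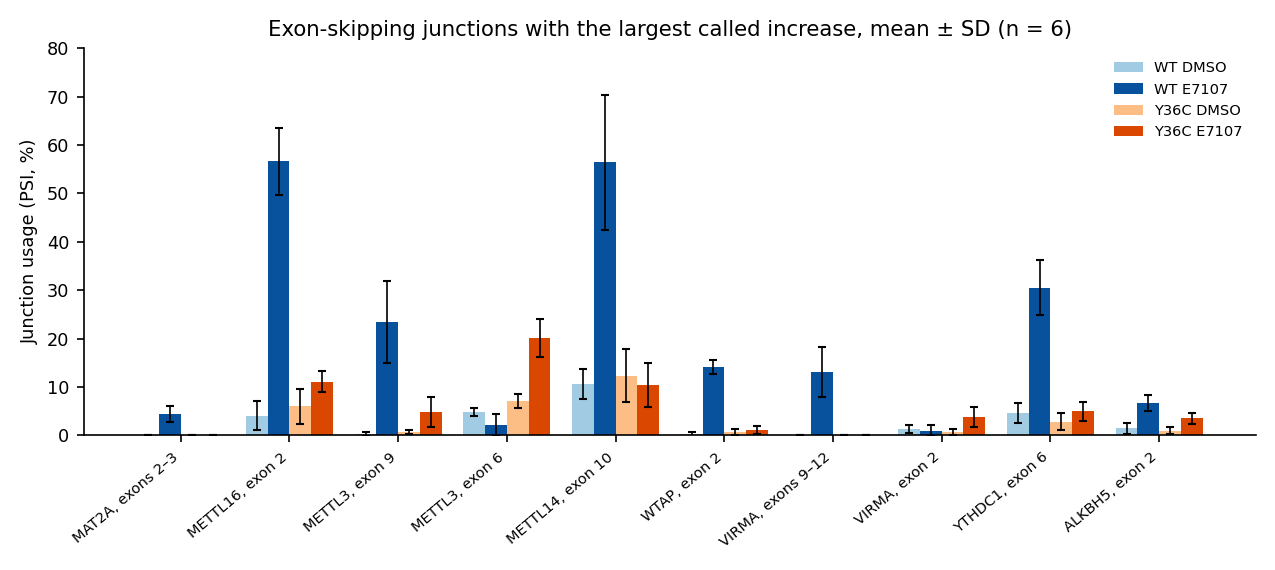
Usage (PSI, %) of the exon-skipping junction with the largest called increase in each gene, as mean ± SD of 6 samples for the 4 groups. Skipping of METTL16 exon 2 (56.6%) and METTL14 exon 10 (56.4%) reached the highest means, both in WT E7107, and skipping of METTL3 exon 6 and VIRMA exon 2 was highest in Y36C E7107.

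Over the 10 genes, 84 spliced rows outside the reference junctions were tested in WT, of which 47 rose and 15 fell, with 18.9% and 23.0% of such rows called in each direction over all genes. Of the 84, 40 passed the filter only through WT E7107, and of the 24 above 0 in every WT sample 9 rose and 7 fell (11.6% and 21.1% over all genes). In Y36C 15 of 76 rose and 7 fell, against 26.9% and 6.11%. None of 71 differed between the genotypes in DMSO, where 0.305% were called higher and 0.225% lower over all genes. Under E7107, 43 of 88 were lower in Y36C than in WT and 21 higher (15.1% and 39.7%), and the interaction was negative in 40 of 98 and positive in 15 (11.1% and 29.1%). Of the 88 and the 98, 33 and 30 passed the filter only through WT E7107. The reference junctions of the 10 genes were lower in WT E7107 at 180 of 208 ends (43.2% over all genes), and this restates the rise in retention and skipping at the same sites.

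For other genes of the pathway the counts lay near those of all genes. Of 253 tested boundaries in 22 further genes of m6A and the S-adenosylmethionine cycle, 189 were higher and 11 lower in WT E7107 (73.7% and 5.65% over all genes), with a median change of 8.04 percentage points, and the median over all genes was 11.7. In Y36C 60 of 181 were higher and 2 lower (30.4% and 1.17% over all genes), with a median of 1.11 against 2.16 over all genes, and none of 161 differed in DMSO. AMD1, which makes decarboxylated S-adenosylmethionine for polyamines, was higher at 16 of 16 boundaries in WT (median change 61.4 percentage points), the cytoplasmic reader YTHDF1 at 7 of 7 (66.2) and CBLL1, a further subunit of the writer complex, at 10 of 10 (40.01). AHCY, the hydrolase of the methylation by-product S-adenosylhomocysteine, was called higher at 3 and lower at 2 of 17, and the reader YTHDC2 higher at 1 and lower at 4 of 7. TRMT112, the partner of METTL5 among others, rose at 6 of 6 boundaries in both genotypes, by a median of 28.2 percentage points in WT and 8.37 in Y36C. The counts for these single genes were not split by the group through which a boundary passed the filter.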

How the data were processed

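The data were RNA-seq of 24 samples in 4 groups taken from the labels. The authors aligned reads to hg19 (GRCh37) with STAR, counted junction reads and deposited PSI as a percent of the reads sharing a splice site, with 1 table per sample and no counts. Every site summed to 100 or 0 (within 0.01 percentage points), and sites that summed to 0 were set to missing. Each table has 1830076 rows, and 6433 rows that were mitochondrial or without a strand were left out. Depth and counting error per value are therefore unknown, and precision rests on the spread of 6 samples.

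An intron runs from the base after the listed start to the listed end. Genes and reference transcripts (MANE Select) came from GENCODE version 44 lifted to GRCh37. Retention was read from rows whose start and end differ by 2.

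PSI was turned into natural-log odds with an offset of 1 percentage point. Rows had to have reads at the site in each sample of the comparison, and at least 1 group without any PSI of 0. They were fitted over all genes with limma 3.58.1 in R 4.3.3 (moderated test, two-sided), and p-values were adjusted by Benjamini–Hochberg over all rows, with a threshold of 0.05. Estimates are given as log odds ± SE. A row with a PSI of 0 in a sample of 1 group was tested only because another group was above 0 throughout. A p-value of such a row is a description and no support for a difference. For MAT2A intron 8 the 6 against 6 exact permutation test was used. The code was tested on simulated data. Python 3.11.15, NumPy 2.4.6, pandas 2.3.3 and SciPy 1.17.1 were used.

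For each gene the boundary with the largest and the smallest change and the non-reference junction with the largest called increase are named, and every intron of MAT2A. The 10 genes, the further gene lists, the offset and the filter were chosen with earlier results of these data known. Alternatives were an offset of 0.1 percentage points, PSI in percent, no filter on low values, a change of at least 10 percentage points, the replicate number as a block, single boundaries and log odds for MAT2A intron 8, and the median over boundaries or all boundaries for gene averages. Counts over rows above 0 in every sample of a comparison, for which no group had to be high, were added after the data were seen.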

Additional observations from a re-analysis of the deposited data

Results flagged for a closer look

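The E7107 effect differed between the genotypes, by the interaction term of limma, at many boundaries of the 10 genes, and 2 kinds of places are described first. In MAT2A intron 8 the effect was smaller in Y36C, by −2.22 in log odds at the 5' boundary and −2.23 at the 3' boundary. The median over the 16 boundaries of MAT2A was −3.86. In METTL3 introns 8 and 9 it was opposite in sign, with differences of 2.78 at the 3' boundary of intron 9, 2.58 at its 5' boundary, 2.40 at the 3' boundary of intron 8 and 2.55 at its 5' boundary. Of the boundaries above 0 in all 24 samples, which did not need WT E7107 to pass the filter, the effect was called smaller in Y36C at 16 of 16 of MAT2A, 9 of 9 of YTHDC1, 4 of 4 of VIRMA, 2 of 2 of WTAP and 1 of 20 of METTL3. METTL16, METTL14, ZC3H13 and ALKBH5 had no such boundary. Over all genes 50.6% of such boundaries were called so. With all tested boundaries the counts were 10 of 10 for METTL16, 19 of 19 for METTL14, 14 of 14 for WTAP, 35 of 36 for VIRMA, 20 of 21 for ZC3H13, 32 of 32 for YTHDC1 and 6 of 6 for ALKBH5 (56.8% over all genes). Of these, 8, 17, 5, 26, 13, 14 and 4 in the same order passed the filter only through WT E7107, where they had to be higher, so nothing is drawn from these counts.

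Single samples stood apart from the other 5 of their group by Dixon's criterion in 23 of 273 groups of values tested, where chance alone marks about 1 in 20. For MAT2A, the lowest intron 8 retention of Y36C cells was 34.7% with DMSO and 36.2% with E7107, and the lowest gene average of Y36C E7107 was 12.7%. Single MAT2A boundaries with such a sample were intron 4 at its 5' end in Y36C E7107 (10.8%), intron 5 at its 3' end in WT E7107 (88.7%) and intron 7 at its 3' end in WT DMSO (11.4%). For METTL3, the highest gene average in Y36C E7107 was 31.7%, and samples stood apart at the 3' end of intron 8 (74.5%) and the 3' end of intron 3 (15.6%) in Y36C E7107 and at the 5' end of intron 1 in WT DMSO (0.625%). The lowest YTHDC1 average in WT E7107 was 54.1%, where the next sample had 65.7%.

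METTL16 had 3.30% at the 3' end of intron 9 in WT DMSO and 1.20% at that of intron 5 in Y36C DMSO. WTAP had 1.28% for the exon 2 skipping junction in WT DMSO, 1.09% at the 5' end of intron 4 in Y36C E7107 and 96.5% at the 5' end of intron 6 in WT E7107. ZC3H13 had 1.11% at the 5' end of intron 3 in WT DMSO and 11.9% at that of intron 1 in Y36C DMSO. ALKBH5 had 2.50% for the exon 2 skipping junction in Y36C DMSO, 45.7% at the 3' end of intron 2 in WT E7107, and at the 3' end of intron 3 in Y36C 0% with DMSO and 2.20% with E7107. METTL14 had 2.27% at the 3' end of intron 7 in Y36C E7107.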

How the results depend on the processing

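The directions of the tested results held under every alternative run, and the counts that moved are given here. With a change of at least 10 percentage points also required, the boundary calls in Y36C fell from 33 to 10 higher and from 1 to 0 lower, and non-reference junction calls became 20 higher and 7 lower in WT, 2 higher and 1 lower in Y36C, 9 higher and 20 lower between the genotypes under E7107, and 9 positive and 19 negative for the interaction. The 7 lower junctions of Y36C became 3 with an offset of 0.1 and 1 without the filter. The 1 boundary that differed between genotypes in DMSO became 0 with an offset of 0.1, 0 without the filter, 0 with at least 10 percentage points, and 2 with PSI in percent. For MAT2A intron 8 in Y36C, the 3' boundary alone gave 3.48 percentage points (exact permutation test, adjusted p = 0.0375). Gene changes by the median over boundaries were 76.9 for MAT2A, 18.9 for METTL16, 49.7 for METTL14, 25.5 for WTAP, 20.8 for VIRMA, 15.5 for ZC3H13 and 69.9 for YTHDC1 in WT, and 0.0617 for METTL16, 6.93 for METTL3 and 0.0469 for VIRMA in Y36C. For METTL3 in WT the median gave 3.87 where the mean gave −2.36, and the cause was not tested. Of 104 named changes, 22 lost their call when 10 percentage points were required and 6 without the filter. Depth was not known, so shares at low levels have no counting interval.

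Replicate numbers did not pair the samples: deviations of same-numbered samples from their group means had correlations between −0.00548 and 0.00586 over 36 pairs. With the replicate block the lower junctions of Y36C became 4, the DMSO boundary call became 0, and the MAT2A intron 8 difference in Y36C of 1.87 percentage points passed the exact permutation test (adjusted p = 0.0417). Of the named changes, 6 lost their call with the block.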
